A study of Mus musculus with 12 samples.

Results

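A set of 10 antigen presentation genes was followed in T helper 9 (Th9) cells of the mouse, a CD4+ T cell subset named for the cytokine IL-9. They are the class I genes *B2m*, *H2-K1*, *H2-D1*, *Tap1*, *Tap2*, *Tapbp* and *Nlrc5* and the class II genes *H2-DMa*, *Cd74* and *Ciita*. They were found by symbol, and all 10 of 10 had a row among the 32051 genes of the deposited table. *H2-DMa* was chosen by its FPKM in the EpA and DMSO libraries, where it had the largest fall in a list of asthma genes, so its difference in that comparison is given here as a description without a test. The other genes were chosen as its partners in antigen presentation, with earlier results of these data known.

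Naive CD4+ T cells from spleens of wild-type C57BL/6J mice, 6 to 8 weeks old, were polarized to Th9 cells with IL-4 at 10 ng/mL and TGF-β at 1 ng/mL. All groups were stimulated through CD3 and CD28 and carried antibodies that neutralize IL-12 and IFN-γ for the first 3 days, so every library comes from cells that were kept from IFN-γ at the start of culture. RNA was taken on day 4. The 4 groups of 3 libraries were DMSO (the vehicle), EpA (endomelipeptide A, a cyclic peptide of a fungus, at 10 μM), DMSO+fato (fatostatin, an inhibitor of the lipid-synthesis factors called SREBPs, at 5 μM) and EpA+fato (both compounds). The doses are those of the study's methods. The labels do not say that the 3 libraries of a group came from separate mice or cultures, so p-values measure the spread between these libraries, which may be technical. The series' design text and the study's methods give different anti-CD3 doses, 5 and 2 μg/mL.

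Nearly all nucleated cells show fragments of their own proteins on MHC class I molecules, which CD8+ T cells read. The class I molecule is a heavy chain (*H2-K1* or *H2-D1* in this strain) paired with β2-microglobulin (*B2m*). The transporter made of TAP1 and TAP2 carries peptides into the endoplasmic reticulum, where tapasin (*Tapbp*) holds the empty class I molecule beside it, and NLRC5 is the factor that switches class I genes on. MHC class II molecules carry peptides from endosomes to CD4+ T cells. CD74, the invariant chain, blocks their groove until H2-DM (*H2-DMa* with *H2-DMb1* or *H2-DMb2*) exchanges its last fragment for a peptide, and CIITA is the master switch of the class II genes. Mouse T cells make little or no class II themselves, while B cells, dendritic cells and macrophages make much.

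Values are the deposited FPKM, fragments scaled to the exon length of a gene and the mapped fragments of a library, so levels of different genes are compared per length. The reads on genes per library ranged from 36019740 to 43656682, as recovered from the FPKM with gene lengths, and the deepest library had 1.21 times the reads of the shallowest. Tests ran on log2(FPKM + 0.1), with limma's moderated test and Benjamini-Hochberg adjustment over the 13733 genes that averaged 0.1 FPKM or more. A gene is called here at an adjusted p below 0.05. Of the 10 genes, 9 reached that minimum and *Ciita* did not. A call with a change of at least 1.5-fold, the size that the study's own calls required, was reached by 0 of those tested in every comparison. All tested genes reached it at 3.38% in EpA against DMSO, 1.86% in DMSO+fato against DMSO, 1.99% in EpA+fato against EpA and 3.75% in EpA+fato against DMSO+fato.

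Of the 10 genes, 6 lie within the MHC region on chromosome 17 of GRCm38. They are *Tapbp* (ENSMUSG00000024308, bases 33915899 to 33929292), *H2-K1* (ENSMUSG00000061232, 33996017 to 34000347), *H2-DMa* (ENSMUSG00000037649, 34119541 to 34139101), *Tap1* (ENSMUSG00000037321, 34187553 to 34197225), *Tap2* (ENSMUSG00000024339, 34203527 to 34216321) and *H2-D1* (ENSMUSG00000073411, 35262730 to 35267499). *B2m* (ENSMUSG00000060802) lies on chromosome 2 at 122147686 to 122153083 and *Nlrc5* (ENSMUSG00000074151) on chromosome 8 at 94434356 to 94527272. *Ciita* (ENSMUSG00000022504) lies on chromosome 16 at 10480059 to 10528418.

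The promoters of 5 of the genes are shown, since promoters of class I genes are known for short shared motifs close to their starts. Each window runs from 250 bases before to 50 bases after a RefSeq start (GRCm38.p6) and reads along the gene. Capitals mark matches to the letters searched on both strands, which were chosen with the sequences in view: ATTGG (the Y box, bound by NF-Y), TGACG (the core of the X2 box, bound by CREB and ATF proteins), AGCAAC (part of the X box), GAAANNGAA (the core of an interferon-stimulated response element), TTCNNNGAA (a gamma-activated site) and TCACNCCAC (a sterol regulatory element). A match on the other strand appears as its complement, CCAAT or CGTCA.
B2m (chr2:122147437-122147736, + strand): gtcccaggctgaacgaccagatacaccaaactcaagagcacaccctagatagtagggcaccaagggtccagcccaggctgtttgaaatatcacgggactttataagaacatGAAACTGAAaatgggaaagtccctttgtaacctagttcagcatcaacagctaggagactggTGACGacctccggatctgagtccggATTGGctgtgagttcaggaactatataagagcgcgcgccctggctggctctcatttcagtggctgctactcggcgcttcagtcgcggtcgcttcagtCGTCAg
H2-K1 (chr17:34000298-34000597, - strand): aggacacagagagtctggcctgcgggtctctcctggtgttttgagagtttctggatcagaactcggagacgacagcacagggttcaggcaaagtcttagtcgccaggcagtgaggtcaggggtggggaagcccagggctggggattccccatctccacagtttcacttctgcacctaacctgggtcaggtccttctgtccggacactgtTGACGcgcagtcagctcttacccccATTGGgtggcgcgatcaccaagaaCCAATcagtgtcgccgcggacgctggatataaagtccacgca
H2-D1 (chr17:35262844-35263143, + strand): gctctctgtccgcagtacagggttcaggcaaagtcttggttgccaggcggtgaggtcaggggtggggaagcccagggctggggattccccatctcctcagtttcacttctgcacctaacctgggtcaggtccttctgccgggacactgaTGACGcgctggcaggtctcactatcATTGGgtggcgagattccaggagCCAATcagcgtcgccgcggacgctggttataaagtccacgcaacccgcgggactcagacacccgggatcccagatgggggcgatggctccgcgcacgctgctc
Tap1 (chr17:34187306-34187605, + strand): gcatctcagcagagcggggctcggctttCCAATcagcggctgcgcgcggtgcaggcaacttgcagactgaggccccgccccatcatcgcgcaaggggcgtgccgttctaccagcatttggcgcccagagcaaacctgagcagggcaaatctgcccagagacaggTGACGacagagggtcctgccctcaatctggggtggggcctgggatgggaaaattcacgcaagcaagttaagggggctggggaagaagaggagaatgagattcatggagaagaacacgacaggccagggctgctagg
H2-DMa (chr17:34122582-34122881, + strand): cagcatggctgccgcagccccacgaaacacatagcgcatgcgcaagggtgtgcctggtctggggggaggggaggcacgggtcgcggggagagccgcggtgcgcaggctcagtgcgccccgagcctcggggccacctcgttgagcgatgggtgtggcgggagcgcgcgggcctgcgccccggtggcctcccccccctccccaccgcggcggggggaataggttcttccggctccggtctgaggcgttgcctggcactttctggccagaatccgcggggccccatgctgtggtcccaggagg

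In *H2-K1*, *H2-D1* and *B2m* the TGACG match was followed on the same strand by an ATTGG match, with first bases at -41 and -16, -101 and -76, and -78 and -53 from the start. In all 3 windows the first bases of the pair lay 25 bases apart, and how often such a pair occurs over all windows was not counted. *Tap1* held TGACG at -86 and CCAAT at -222, and the *H2-DMa* window above held 0 of the 6 motifs. TGACG was present in 20.8% of all 32851 promoter windows and ATTGG in 37.4%, so either match alone is common. Only *B2m* among the 5 windows held GAAANNGAA, starting at -139, against 8.56% of all windows. These letters were shortened by 1 base after the match had been seen, which made them more common. AGCAAC (14.8% of all windows), TTCNNNGAA (8.3%) and TCACNCCAC (1.24%) matched none of the 5 windows. The *H2-DMa* start lies 198 bases from the first base of *Brd2*, a gene on the opposite strand that runs away from it, and that window is 73% G and C. A second RefSeq start of *H2-DMa* at which ATTGG matched at -198, a second start of *H2-K1*, and *Tapbp* with 2 matches to ATTGG were also read. *Tap2*, *Nlrc5* and *Ciita* had no entry, and the promoter of *Cd74* was not searched here.

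The per-library plot gives the level of all 10 genes. At the level of transcripts the class I chain genes were among the strongly expressed genes, and the class II genes of the set were lower than these chains. *H2-DMa* and *Cd74* were above the class I gene *Nlrc5*. Mean FPKM over the DMSO libraries were 1168 for *B2m*, 357 for *H2-D1* and 302 for *H2-K1*, and 17.05 for *H2-DMa*, 9.06 for *Cd74* and 0.0429 for *Ciita*. For 5 of the 10 genes (*B2m*, *Tap1*, *Tapbp*, *Nlrc5* and *H2-DMa*) the means ran in 1 order, highest in DMSO+fato, then DMSO, then EpA+fato and lowest in EpA. In *Tap1* and *H2-DMa* the libraries of neighboring groups in that order did not overlap. In *Nlrc5* those of DMSO and EpA+fato overlapped, and in *B2m* and *Tapbp* those of EpA+fato and EpA did.

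**Figure D1:**
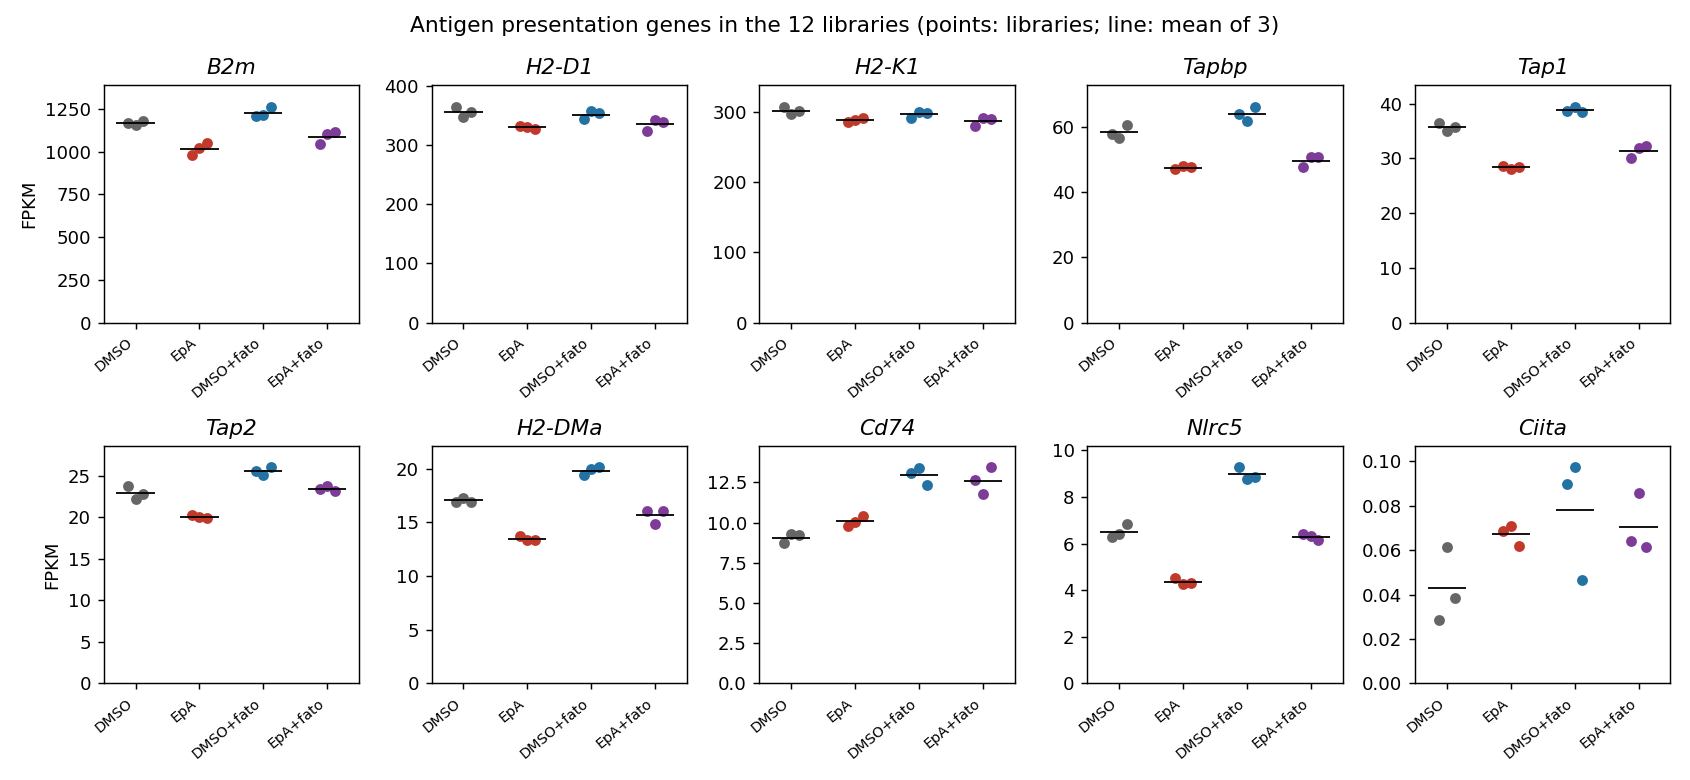
FPKM (vertical axis, linear from 0, its own scale for each gene) of the 10 genes in the 12 libraries, by group along the horizontal axis. Each point is 1 library and each line the mean of 3; for *Nlrc5*, *Tap1* and *H2-DMa* the EpA points lie below the DMSO points and the DMSO+fato points above them, while *H2-K1* and *H2-D1* differ little between groups.

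*Nlrc5*, the class I switch, had the largest relative changes with EpA among the 9 genes. It measured 6.27, 6.403 and 6.82 FPKM in the DMSO libraries, 4.53, 4.26 and 4.29 in EpA, 9.27, 8.79 and 8.85 in DMSO+fato and 6.41, 6.33 and 6.13 in EpA+fato. All EpA libraries were below all others, and all DMSO+fato libraries above all others. *Nlrc5* fell with EpA, from a mean of 6.498 ± 0.285 to 4.36 ± 0.145 (SD, n = 3 each), a log2 fold change of -0.56 (SE 0.04, adjusted p = 3.02e-06). It also fell when EpA was added to fatostatin, with a log2 fold change of -0.50 (SE 0.04, adjusted p = 5.66e-06). With fatostatin it rose, with log2 fold changes of 0.46 (SE 0.04, adjusted p = 2.50e-05) over DMSO and 0.52 (SE 0.04, adjusted p = 8.69e-06) over EpA. Both compounds together left *Nlrc5* at 6.29 ± 0.143 FPKM (SD, n = 3), near the DMSO level.

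The transporter chains and tapasin fell with EpA by less than *Nlrc5*. *Tap1*, a chain of the peptide transporter, measured 36.4, 35.1 and 35.7 FPKM in DMSO, 28.5, 28.1 and 28.5 in EpA, 38.7, 39.5 and 38.5 in DMSO+fato and 30.1, 31.8 and 32.2 in EpA+fato. No 2 groups overlapped. *Tap1* fell with EpA, with log2 fold changes of -0.33 (SE 0.03, adjusted p = 4.39e-06) without fatostatin and -0.31 (SE 0.03, adjusted p = 6.07e-06) in its presence. It rose with fatostatin, with log2 fold changes of 0.12 (SE 0.03, adjusted p = 0.00866) over DMSO and 0.15 (SE 0.03, adjusted p = 0.00297) over EpA.

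*Tap2*, the other chain of the transporter, measured 23.7, 22.2 and 22.8 FPKM in DMSO, 20.3, 20.01 and 19.9 in EpA, 25.6, 25.1 and 26.04 in DMSO+fato and 23.4, 23.8 and 23.2 in EpA+fato. EpA libraries were the lowest and DMSO+fato libraries the highest, and DMSO and EpA+fato overlapped. *Tap2* fell with EpA, with log2 fold changes of -0.19 (SE 0.03, adjusted p = 0.000265) alone and -0.13 (SE 0.03, adjusted p = 0.00379) with fatostatin present. It rose over DMSO with fatostatin alone, by 0.16 (SE 0.03, adjusted p = 0.0019), and over EpA when fatostatin was added, by 0.22 (SE 0.03, adjusted p = 0.000156), both on the log2 scale.

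*Tapbp*, tapasin, measured 57.9, 56.4 and 60.4 FPKM in DMSO, 46.9, 47.8 and 47.6 in EpA, 63.9, 61.6 and 66.1 in DMSO+fato and 47.5, 50.6 and 50.6 in EpA+fato. Every library with EpA was below every library without it. *Tapbp* fell with EpA, with log2 fold changes of -0.29 (SE 0.03, adjusted p = 6.72e-05) without fatostatin and -0.37 (SE 0.03, adjusted p = 1.13e-05) with it. Fatostatin alone raised *Tapbp* by 0.13 (SE 0.03, adjusted p = 0.0201) on the log2 scale, a call kept in 16 of 22 alternatives. It was lost without DMSO replicate 1 (adjusted p = 0.0654) or 2 (0.0749) and without DMSO+fato replicate 1 (0.0571) or 3 (0.0780). Added to EpA, fatostatin gave 0.06 (SE 0.03, adjusted p = 0.249), with no call.

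The chains of the class I molecule itself were read next. *B2m*, the light chain, measured 1168, 1156 and 1181 FPKM in DMSO, 982, 1020.4 and 1051 in EpA, 1206, 1212 and 1264 in DMSO+fato and 1046, 1106 and 1112 in EpA+fato. The libraries with EpA were all below those without it. *B2m* fell with EpA, with log2 fold changes of -0.20 (SE 0.03, adjusted p = 0.000555) alone and -0.17 (SE 0.03, adjusted p = 0.00125) in the presence of fatostatin. Its log2 differences with fatostatin were 0.07 (SE 0.03, adjusted p = 0.159) over DMSO and 0.10 (SE 0.03, adjusted p = 0.0532) over EpA, neither called. The second was called in 7 of 22 alternatives, among them without EpA replicate 3 (adjusted p = 0.0345), without EpA+fato replicate 1 (0.0191) and without DMSO+fato replicate 3 (0.0482).

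The classical heavy chain genes spanned narrow ranges. *H2-D1* lay between 348 and 365 FPKM in DMSO, 328 and 332 in EpA, 344.0 and 357 in DMSO+fato and 323 and 343 in EpA+fato. *H2-K1* lay between 297 and 307, 285 and 291, 291 and 299, and 280.1 and 291 FPKM in the same groups. Both genes fell with EpA, with log2 fold changes of -0.11 (SE 0.03, adjusted p = 0.00706) for *H2-D1* and -0.07 (SE 0.02, adjusted p = 0.0317) for *H2-K1*. The *H2-K1* call was kept in 16 of 22 alternatives, and lost without DMSO replicate 1 (adjusted p = 0.118) or 3 (0.0721) and without EpA replicate 1 (0.103) or 2 (0.0756). With fatostatin present, the log2 differences were -0.07 (SE 0.03, adjusted p = 0.0595) for *H2-D1* and -0.05 (SE 0.02, adjusted p = 0.116) for *H2-K1*, neither called. For *H2-D1* a call appeared in 6 of 22 alternatives, among them without DMSO+fato replicate 1 (adjusted p = 0.0408) and without EpA+fato replicate 2 (0.0461). Fatostatin gave no call for either gene, and the 95% intervals of its log2 effect were -0.07 to 0.04 over DMSO for *H2-D1* and -0.07 to 0.02 for *H2-K1*. Of the 50-base stretches of their transcripts, 9.63% in *H2-K1* and 12.8% in *H2-D1* occur in other genes as well, the most with *H2-Q10* and *H2-Q1*, other class I genes, and reads from those stretches cannot be assigned with certainty. The same share was 23.2% in *Tapbp*, where 904 of 3628 exon bases overlap *Gm19412* on the opposite strand, and 11.6% in *Tap2*, where 533 of 3781 overlap *Gm15821* on the opposite strand.

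*H2-DMa*, the chain of H2-DM whose fall with EpA led to its choice, measured 16.9, 17.3 and 16.9 FPKM in DMSO, 13.7, 13.4 and 13.4 in EpA, 19.4, 19.95 and 20.1 in DMSO+fato and 16.1, 14.9 and 16.1 in EpA+fato. The 4 groups did not overlap. Between EpA and DMSO, the comparison that chose it, the log2 difference was -0.34. In EpA+fato against DMSO+fato, whose libraries had no part in that choice, *H2-DMa* fell, with a log2 fold change of -0.34 (SE 0.03, adjusted p = 1.26e-05). That SE pools the spread of all 12 libraries, and with a fit of only the 6 libraries compared limma's adjusted p was 0.0011. With fatostatin it was higher by 0.22 over DMSO and by 0.22 over EpA on the log2 scale, given without a test because the DMSO and the EpA libraries chose the gene. The exons of *H2-DMa* share 360 of 3448 bases with *Brd2* on the opposite strand, and whether strand was used in counting is not given in the sources used here. *Brd2*, a chromatin reader, rose with EpA by 0.12 (SE 0.02, adjusted p = 0.000563) on the log2 scale and by 0.07 (SE 0.02, adjusted p = 0.0123) with fatostatin present (the second call was lost in a fit of only the groups compared, adjusted p = 0.0610), in the direction opposite to *H2-DMa*. The part of the shared bases in the values of *H2-DMa* was not tested.

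*Cd74*, the invariant chain, differed from the class I genes. It measured 8.704, 9.29 and 9.205 FPKM in DMSO, 9.78, 10.04 and 10.4 in EpA, 13.1, 13.4 and 12.4 in DMSO+fato and 12.6, 11.8 and 13.4 in EpA+fato. Every library with fatostatin was above every library without it. *Cd74* rose with fatostatin by 0.51 (SE 0.05, adjusted p = 4.54e-05) on the log2 scale over DMSO and by 0.32 (SE 0.05, adjusted p = 0.00127) over EpA. With EpA alone it was higher by 0.15 (SE 0.05, adjusted p = 0.0437), a call kept in only 9 of 22 alternatives. Leaving out any 1 of the 6 libraries compared, or replicate 1 of DMSO+fato or of EpA+fato, gave an adjusted p between 0.0543 and 0.145. In the presence of fatostatin the log2 difference with EpA was -0.04 (SE 0.05, adjusted p = 0.624), with overlapping libraries.

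*Ciita*, the class II switch, was close to absent. Its mean levels were 0.0429, 0.0672, 0.0779 and 0.0705 FPKM in DMSO, EpA, DMSO+fato and EpA+fato, from 10 to 38 recovered reads per library. It was below the minimum for testing. Tested with no minimum, it gave adjusted p-values of 0.235 or more in the comparisons of groups. Its exons share 329 of 9535 bases with *Dexi* on the opposite strand.

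**Figure D2:**
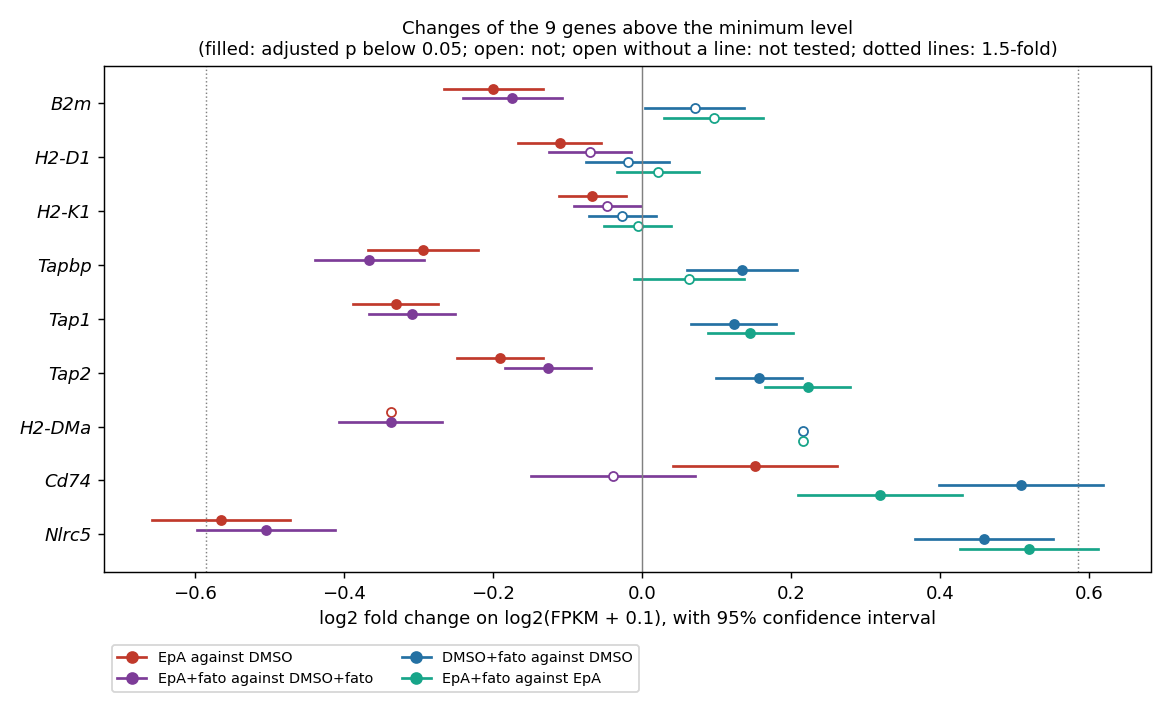
Log2 fold changes on log2(FPKM + 0.1) (horizontal axis) of 9 genes in 4 comparisons, with 95% confidence intervals from limma; filled points have an adjusted p below 0.05, dotted lines mark 1.5-fold, and *H2-DMa* has an interval only in EpA+fato against DMSO+fato because it was not tested in the others. Changes with EpA lie to the left of 0 except for *Cd74*, changes with fatostatin mostly to the right, and no point passes the dotted lines.

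Counted together, EpA lowered 7 and raised 1 of the 8 genes tested against DMSO, where 27.4% of all tested genes were called, 13.1% as lower and 14.3% as higher. That count is no independent evidence, since the genes were chosen with the comparison known. In the presence of fatostatin EpA lowered 6 of 9 and raised 0, and 29.5% of all tested genes were called, 13.3% as lower. In that comparison the libraries of the 2 groups did not overlap and were lower with EpA for 8 of 9 genes, against 19% of all tested genes. Among tested genes that averaged 10 FPKM or more, 20.8% were called as lower there and 18.8% in EpA against DMSO. Fatostatin alone raised 5 of the 8 genes tested and lowered 0, against 7.69% of all tested genes called as higher and 14% called in all. Added to EpA it raised 4 of 8 and lowered 0, against 9.22% called as higher and 16% in all. Comparisons that share libraries are not independent of each other.

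Whether the effect of EpA differed with and without fatostatin was tested as a difference between the 2 effects. By limma 0 of 8 genes tested were called, with 1 of 8 at an unadjusted p below 0.05, and 0 were called with voom on recovered reads. Over all genes 6, or 0.0437%, were called. Of the 8 genes *Cd74* came closest to a call, at -0.19 on the log2 scale (limma's adjusted p = 0.535). The 95% intervals of the difference were -0.07 to 0.19 for *Nlrc5*, -0.06 to 0.10 for *Tap1*, -0.18 to 0.03 for *Tapbp* and -0.07 to 0.12 for *B2m*. For *H2-DMa*, given without a test, the difference was near 0 at -0.00046.

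The wider class I pathway was read from a list of 28 further genes, of which 26 were tested. EpA lowered 12 and raised 0 of them, and with fatostatin present it lowered 16 and raised 1, where 13.1% and 13.3% of all tested genes were called as lower. The median log2 change over the list was -0.11 without and -0.10 with fatostatin, beside medians over all tested genes of 0.0023 and 0.0116. The immunoproteasome subunit *Psmb9*, which helps to cut peptides that fit class I, fell with EpA, with log2 fold changes of -0.23 (SE 0.04, adjusted p = 0.00102) alone and -0.30 (SE 0.04, adjusted p = 0.000179) with fatostatin present. It shares 212 exon bases with *Tap1* on the opposite strand. *Psmb8*, another such subunit, gave -0.06 (SE 0.03, adjusted p = 0.24) and -0.06 (SE 0.03, adjusted p = 0.258), with no call. *Psmb10*, the remaining one, gave -0.13 (SE 0.05, adjusted p = 0.0687) without fatostatin, not called, and fell with it, -0.19 (SE 0.05, adjusted p = 0.0107), a call lost in a fit of only the groups compared (adjusted p = 0.0534).

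*Cd1d1*, which presents lipids to NKT cells, had the largest fall of the list. It measured 1.22, 1.22 and 1.66 FPKM in DMSO and 0.636, 0.644 and 0.533 in EpA, and 1.48, 1.14 and 1.498 in DMSO+fato and 0.659, 0.758 and 0.7596 in EpA+fato. The libraries with EpA lay below all those without. *Cd1d1* fell with EpA, with log2 fold changes of -1.05 (SE 0.14, adjusted p = 0.000245) alone and -0.83 (SE 0.14, adjusted p = 0.00111) with fatostatin present, so it passed 1.5-fold in both. With a pseudocount of 1 these were -0.56 and -0.46, under 1.5-fold but still called. *H2-Q10*, a nonclassical class I gene at 0.92 to 1.43 FPKM in group means, was higher with EpA when fatostatin was present, by 0.58 (SE 0.15, adjusted p = 0.0143), a call lost without DMSO+fato replicate 1 (adjusted p = 0.0508). With fatostatin 5 of the 26 genes were called over DMSO, a share near the 14% of all tested genes, 2 higher and 3 lower, among them the chaperones *Calr* (-0.16 (SE 0.03, adjusted p = 0.00122)) and *Pdia6* (-0.13 (SE 0.02, adjusted p = 0.000729)). Added to EpA, it raised 5 and lowered 2, beside 16% of all tested genes called.

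The class II list of 18 further genes, 16 of them tested, moved in both directions. EpA raised 4 and lowered 2, and with fatostatin present it raised 6 and lowered 3. Over all tested genes 27.4% and 29.5% were called, and among those that averaged 10 FPKM or more 42.9% and 45.7%. The median log2 changes were 0.03 and 0.08. *H2-DMb2* measured 7.88, 8.195 and 7.54 FPKM in DMSO, 6.85, 5.73 and 6.52 in EpA, 9.82, 9.08 and 10.3 in DMSO+fato and 7.76, 7.83 and 7.92 in EpA+fato. It fell with EpA, with log2 fold changes of -0.31 (SE 0.06, adjusted p = 0.00437) alone and -0.31 (SE 0.06, adjusted p = 0.0038) with fatostatin present. It rose with fatostatin by 0.30 (SE 0.06, adjusted p = 0.00875) over DMSO and 0.30 (SE 0.06, adjusted p = 0.00822) over EpA. *H2-DMb1* rose with fatostatin by 0.50 (SE 0.13, adjusted p = 0.0201) and by 0.48 (SE 0.13, adjusted p = 0.0219), and gave -0.28 (SE 0.13, adjusted p = 0.132) and -0.29 (SE 0.13, adjusted p = 0.103) with EpA, neither called. The first of the calls was lost without DMSO replicate 1 (adjusted p = 0.0755 from limma) and without DMSO+fato replicate 1 (0.0536) or 2 (0.0649), and the second without replicate 3 of EpA (0.0840) or of EpA+fato (0.0825).

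Of the class II chains, *H2-Ab1* moved with EpA in the direction opposite to *H2-DMa*. *H2-Ab1*, the β chain of I-A, measured 7.75, 7.89 and 7.66 FPKM in DMSO, 8.801, 9.66 and 9.46 in EpA, 7.13, 7.27 and 6.797 in DMSO+fato and 8.76, 10.01 and 9.07 in EpA+fato. All libraries with EpA were above all those without it. *H2-Ab1* rose with EpA by 0.26 (SE 0.05, adjusted p = 0.00337) and by 0.39 (SE 0.05, adjusted p = 0.000197) on the log2 scale. Its partner chain *H2-Aa* stayed at 0.39 to 0.60 FPKM in group means and gave no call in any comparison. *H2-Eb1*, at 0.84 to 1.84 FPKM in group means, rose with fatostatin over DMSO by 0.84 (SE 0.22, adjusted p = 0.0224), and gave 0.56 (SE 0.22, adjusted p = 0.0761) with EpA, not called. When fatostatin was added to EpA it gave no call, at mean levels of 1.27 FPKM in EpA and 1.84 in EpA+fato. The call with fatostatin was kept in 18 of 22 alternatives, and lost without DMSO replicate 1 (adjusted p = 0.0638 from limma) or 2 (0.0755), without DMSO+fato replicate 3 (0.0855) and in a fit of only the groups compared (0.0599). With a pseudocount of 1 its log2 change was 0.48. The inhibitory H2-DO chains gave no call, with *H2-Oa* at 4.45 to 4.75 and *H2-Ob* at 0.11 to 0.14 FPKM in group means.

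Proteases that cut antigen and the invariant chain in endosomes also split. *Lgmn*, a legumain that cleaves after asparagine, fell in all 4 comparisons, from 17.3 ± 1.04 FPKM in DMSO to 8.53 ± 0.311 in EpA+fato (SD, n = 3 each). Its log2 changes were -0.36 (SE 0.05, adjusted p = 0.000203) with EpA, -0.41 (SE 0.05, adjusted p = 0.000165) with fatostatin, -0.65 (SE 0.05, adjusted p = 4.62e-06) with fatostatin added to EpA and -0.60 (SE 0.05, adjusted p = 4.14e-06) with EpA added to fatostatin. The cathepsin genes *Ctsl* and *Ctsz* rose with EpA, *Ctsl* by 0.33 and 0.43 and *Ctsz* by 0.32 and 0.33 without and with fatostatin. *Ctsd* rose with fatostatin by 0.32 over DMSO and 0.42 over EpA. *Ctss*, cathepsin S, fell when EpA was added to fatostatin, with a log2 fold change of -0.18 (SE 0.05, adjusted p = 0.0253), a call lost without replicate 1 or 3 of DMSO+fato or 2 or 3 of EpA+fato (adjusted p = 0.0682 to 0.0958). It was also lower when fatostatin was added to EpA, with a log2 fold change of -0.19 (SE 0.05, adjusted p = 0.0331), and that call was lost in 8 of 22 alternatives, among them without replicate 1 or 2 of EpA or 2 or 3 of EpA+fato (adjusted p = 0.0862 to 0.113).

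**Figure D3:**
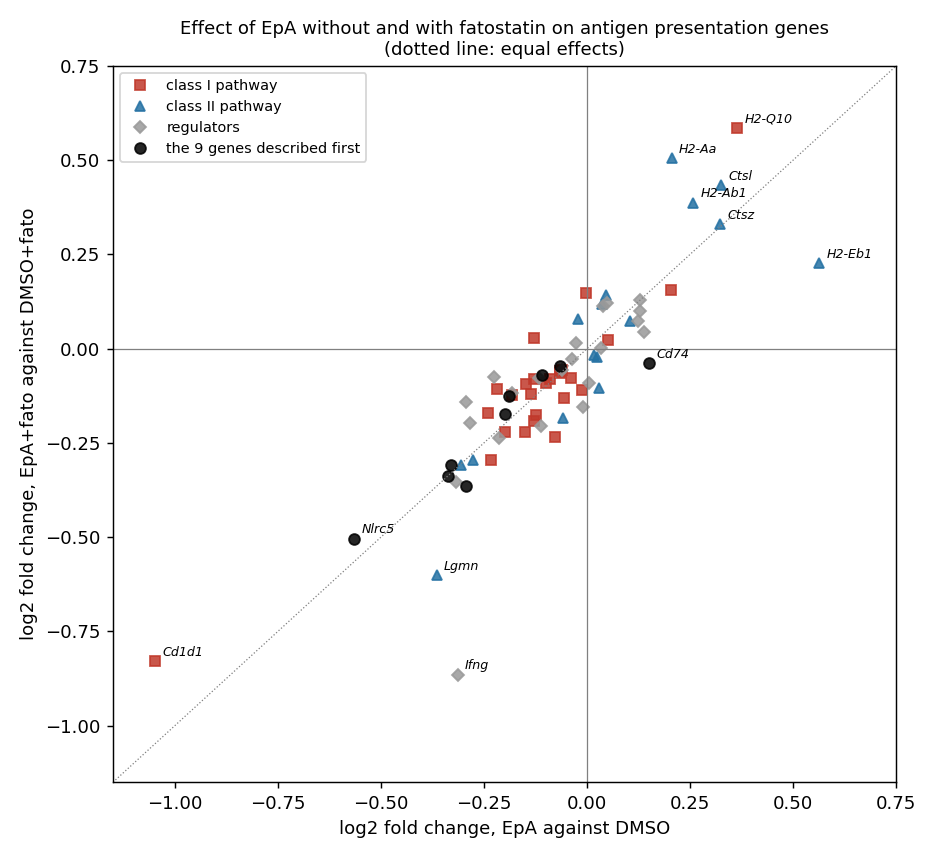
Log2 fold change with EpA without fatostatin (horizontal axis) and with it (vertical axis) for the tested genes of the class I, class II and regulator lists and for the 9 genes described first; each point is 1 gene and the dotted line marks equal effects. The 2 axes use different libraries. Most class I genes lie at lower left, *H2-Ab1*, *Ctsl* and *Ctsz* at upper right, and *Cd74* near 0 on the vertical axis.

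Among 21 regulators of these genes, all tested, EpA lowered 6 and raised 3, and with fatostatin present it lowered 5 and raised 3. These counts are near or below the 42.9% and 45.7% called among genes that averaged 10 FPKM or more, beside 27.4% and 29.5% of all tested genes. *Irf1*, a factor that binds interferon-stimulated response elements, measured 13.8, 14.1 and 13.6 FPKM in DMSO, 11.1, 11.4 and 10.7 in EpA, 15.5, 15.8 and 15.8 in DMSO+fato and 11.9, 12.1 and 12.9 in EpA+fato. The 4 groups did not overlap, and both groups with EpA were the lower ones. *Irf1* fell with EpA, with log2 fold changes of -0.32 (SE 0.03, adjusted p = 4.47e-05) alone and -0.35 (SE 0.03, adjusted p = 1.80e-05) with fatostatin present. It rose with fatostatin by 0.18 (SE 0.03, adjusted p = 0.00432) over DMSO and 0.15 (SE 0.03, adjusted p = 0.0129) over EpA, and the second of these calls was lost without EpA replicate 3 (adjusted p = 0.0547 from limma) and in a fit of only the groups compared (0.0611).

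*Rfx5*, the X box binding subunit that CIITA and NLRC5 rely on, fell with EpA, with a log2 fold change of -0.29 (SE 0.05, adjusted p = 0.00162), and gave -0.14 (SE 0.05, adjusted p = 0.066) with fatostatin present, not called. It rose with fatostatin by 0.19 (SE 0.05, adjusted p = 0.0348) over DMSO, a call kept in 16 of 22 alternatives and lost without replicate 1 or 2 of DMSO or of DMSO+fato (adjusted p = 0.0871 to 0.117), and by 0.34 (SE 0.05, adjusted p = 0.00113) over EpA. Its partners *Rfxank* and *Rfxap* gave no call in any of these comparisons. *Ifng*, the gene of IFN-γ, was low. It measured 2.05, 2.02 and 2.54 FPKM in DMSO, 2.14, 1.49 and 1.66 in EpA, 2.297, 2.56 and 2.52 in DMSO+fato and 1.27, 1.28 and 1.36 in EpA+fato. It fell when EpA was added to fatostatin, with a log2 fold change of -0.86 (SE 0.12, adjusted p = 0.000297), and gave -0.31 (SE 0.12, adjusted p = 0.0813) without fatostatin, not called, with overlapping libraries. It was lower when fatostatin was added to EpA, with -0.39 (SE 0.12, adjusted p = 0.0499), a call lost in 17 of 22 alternatives (-0.25 without EpA replicate 1). In all, fatostatin raised 4 and lowered 0 regulators over DMSO, and raised 8 and lowered 1 over EpA, where 14% and 16% of all tested genes were called, 7.69% and 9.22% as higher.

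The labelled cell type was checked with marker genes, and in these bulk libraries fewer cells of a type and less RNA per cell cannot be told apart. The T cell genes *Cd3e* (53.3 FPKM in DMSO) and *Cd4* (78.2) were high. The summed level of 9 T cell markers was 715 to 722 FPKM in DMSO, 638 to 643 in EpA, 691 to 713 in DMSO+fato and 616 to 625 in EpA+fato. EpA lowered 6 of the 9 and raised 1, *Cd4*, beside 13.1% of all tested genes called as lower and 18.8% of those that averaged 10 FPKM or more, so lower T cell markers stood beside lower class I genes. *Cd3e* fell with EpA, with log2 fold changes of -0.33 without and -0.34 with fatostatin. *Cd8a* fell with EpA, with a log2 fold change of -1.08 (SE 0.11, adjusted p = 2.85e-05), and was at 1.81, 0.802, 1.52 and 0.491 FPKM in DMSO, EpA, DMSO+fato and EpA+fato, and *Cd8b1*, the other CD8 marker, at 7.600, 7.47, 7.64 and 7.25 FPKM with no call.

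Markers of cells that make much class II were mostly low. The 9 B cell markers summed to 53.3 to 54.3 FPKM in DMSO, 29.2 to 30.1 in EpA, 52.8 to 53.1 in DMSO+fato and 27.5 to 27.8 in EpA+fato. Most of that sum was *Ighm*, the constant region of IgM, which fell with EpA from 46.04 ± 0.584 to 23.1 ± 0.605 FPKM and with fatostatin present from 44.1 ± 0.453 to 20.4 ± 0.316 (SD, n = 3 each). Of the others, *Ms4a1* (0.04 to 0.06 FPKM in group means), *Pax5* (0.03 to 0.05) and *Cd22* (0.02 to 0.04) were near 0, and *Blk* (0.12 to 0.13), *Fcer2a* (0.20 to 0.36) and *Ighd* (0.21 to 0.50) were low. *Cd79b*, a chain of the B cell receptor complex, was at 5.16 to 6.92 FPKM, near the level of *H2-Ab1*. With fatostatin present EpA lowered 3 of the 6 B cell markers tested, *Ighm*, *Ighd* and *Cd79b*, beside 13.3% of all tested genes. *Cd79b* gave -0.33 (SE 0.11, adjusted p = 0.043) there, a call kept in 12 of 22 alternatives, and lost without replicate 1 or 2 of DMSO+fato or any replicate of EpA+fato, among others. Its partner *Cd79a*, at 0.49 to 0.87, fell with EpA, with a log2 fold change of -0.60 (SE 0.15, adjusted p = 0.0127), and rose when fatostatin was added to EpA, by 0.72 (SE 0.15, adjusted p = 0.00828), as *Cd74* did in that comparison. The *Cd79a* call with EpA was lost without EpA replicate 1 (adjusted p = 0.0519 from limma) and with voom (0.0592). With a pseudocount of 1 the log2 changes of *Cd79a* were -0.27 and 0.33, still called. Over DMSO fatostatin called 0 of the 6 B cell markers tested by limma, with 1 at an unadjusted p below 0.05, beside 14% of all tested genes. The 12 markers of myeloid and dendritic cells summed to 0.714 to 0.847, 0.884 to 0.986, 0.936 to 1.02 and 1.096 to 1.22 FPKM in DMSO, EpA, DMSO+fato and EpA+fato, and 3 of them, *Clec9a*, *Siglech* and *Cd209a*, were at 0 in all libraries. Of the 4 myeloid and dendritic markers tested, *Lyz2*, the lysozyme of macrophages, was called higher in both comparisons in which *Cd74* rose over DMSO, by 1.07 (SE 0.26, adjusted p = 0.00934) with EpA and by 1.15 (SE 0.26, adjusted p = 0.0113) with fatostatin on the log2 scale. Its level was 0.0371 FPKM in DMSO, 0.186 in EpA and 0.2005 in DMSO+fato, so low that a pseudocount of 1 gave log2 changes of 0.19 and 0.21. The DMSO mean was under the minimum of 0.1 FPKM, so *Lyz2* was tested only through its level in the other groups. The DMSO libraries held 0 to 4 *Lyz2* reads, and the call with fatostatin was lost in a fit of only the groups compared (adjusted p = 0.0530 from limma). *Zbtb46*, another of these markers, had mean levels of 0.0595, 0.104, 0.163 and 0.179 FPKM in DMSO, EpA, DMSO+fato and EpA+fato. Its DMSO+fato libraries lay above its DMSO libraries, with no call. *Xcr1*, of a type of dendritic cell, had mean levels of 0.195 FPKM in DMSO and 0.0847 in EpA, a log2 change of -0.66 (SE 0.21, adjusted p = 0.0338). That call was lost in 7 of 21 alternatives, among them without replicate 2 or 3 of DMSO or any replicate of EpA (adjusted p = 0.0696 to 0.131 from limma). The 4 natural killer cell markers summed to 0.148 to 0.385 FPKM. One of them, *Eomes*, a T-box factor of killer cells, was called lower with EpA, with log2 fold changes of -0.90 (SE 0.21, adjusted p = 0.00779) alone and -0.94 (SE 0.21, adjusted p = 0.00554) with fatostatin present, from mean levels of 0.2204 to 0.0711 and of 0.222 to 0.0654 FPKM. The groups with EpA averaged under the minimum of 0.1 FPKM, so *Eomes* was tested only through its level in the other groups. Over the alternatives these changes ranged from -1.62 to -0.19 alone and from -1.68 to -0.20 with fatostatin present. The part of B, myeloid, dendritic and natural killer cells in the levels of *Cd74*, *H2-Ab1* and *H2-Eb1* was not tested.

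**Figure D4:**
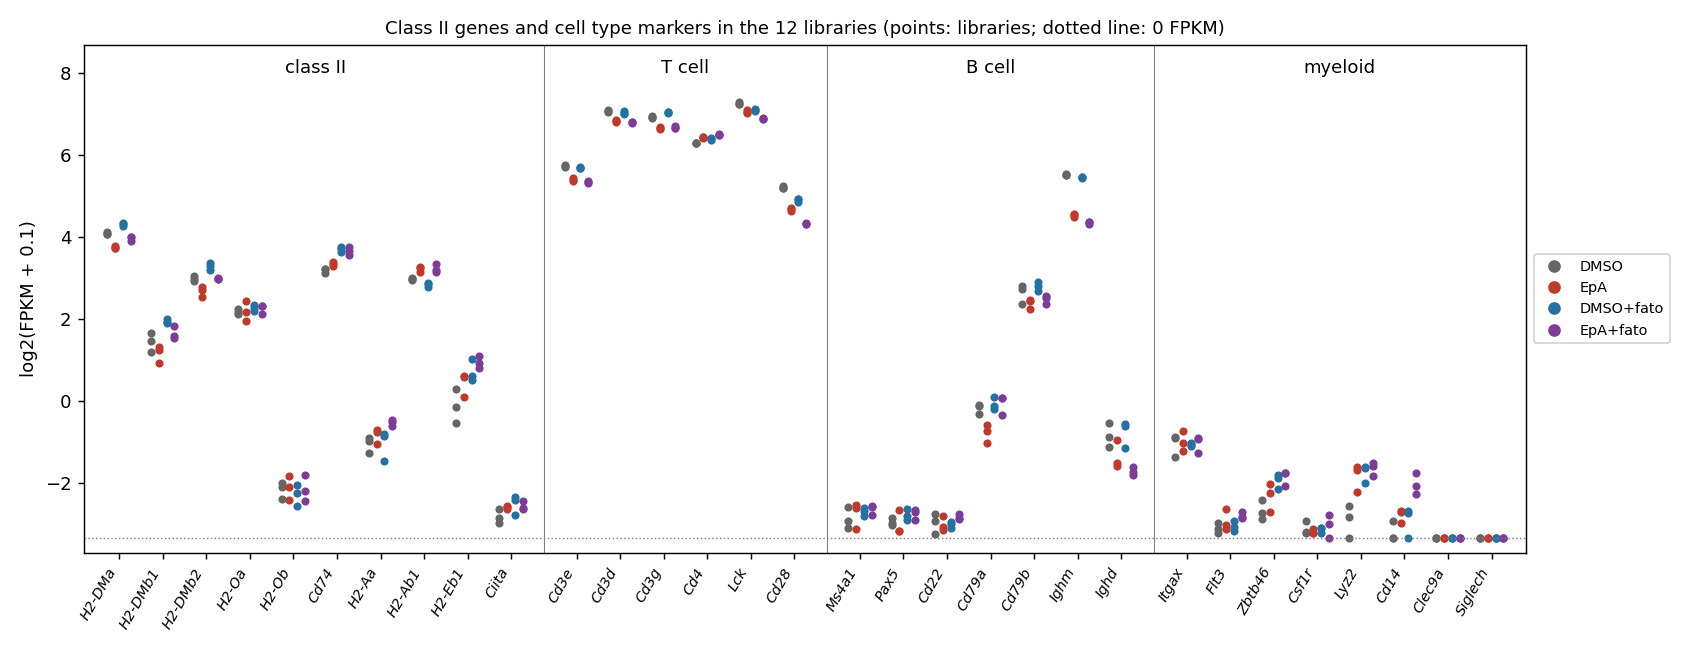
Log2(FPKM + 0.1) (vertical axis) of class II genes and of T cell, B cell and myeloid markers (horizontal axis), each point 1 library colored by group; the dotted line is 0 FPKM. *H2-DMa*, *Cd74* and *H2-Ab1* lie well above the B cell genes *Ms4a1*, *Pax5* and *Cd22* and the myeloid genes, which all lie below 0 on that axis, while *Ighm* is high and lower with EpA.

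The genes whose pattern over the 12 libraries was most like that of *H2-DMa*, by Pearson r of log2(FPKM + 0.1) among 10298 genes that averaged 1 FPKM or more, were *L3mbtl3* (0.99), *Trat1* (0.99), *Itgb2* (0.99), *Samhd1* (0.99) and *Tbc1d4* (0.98). For *Tap1* they were *Fam53b* (0.99), *Mbnl1* (0.99), *Shisa5* (0.99), *Gbp7* (0.99) and *Ctse* (0.99). *Itgb2*, an integrin chain, had mean levels of 119 FPKM in DMSO, 94.1 in EpA, 142 in DMSO+fato and 108 in EpA+fato. *Gbp7*, an interferon-induced GTPase, had mean levels of 1.18, 0.582, 1.72 and 0.853 FPKM in the same groups. These likenesses were picked as the highest of many, over libraries that share 4 conditions. Among the 9 genes themselves, r with *H2-DMa* over the 12 libraries was 0.97 for *Nlrc5*, 0.96 for *Tap1* and 0.41 for *Cd74*.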

How the data were processed

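RNA-seq of polarized Th9 cells was read in 12 libraries, 3 in each of 4 groups taken from the labels. Per the study's methods, the authors used Trim Galore on paired-end reads, HISAT2 for alignment (GRCm38) and featureCounts for counting, and deposited FPKM values, scaled by gene length and library size. The annotation release and strand setting are not given in the sources used here. The table held 32352 lines for 32051 genes (301 repeat lines carried the same values), and 0 columns belonged to no sample.

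Values were transformed to log2(FPKM + 0.1), which understates changes of low genes. Genes that averaged 0.1 FPKM or more were tested with limma 3.58.1 in R 4.3.3, in 1 fit with a mean for each group and an intensity trend, two-sided, with Benjamini-Hochberg adjustment over all 13733 tested genes of each comparison. The fit was tested on simulated data first. Reads were recovered from FPKM with exon lengths of a GENCODE annotation of GRCm38 for 99.85% of genes, and 98.41% to 98.56% of the values above 0 in a library came out whole within 0.05 reads, so FPKM depth limits are known. The recovered reads were used for an alternative with limma's voom.

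The 10 genes, the other lists, the markers and the tests were chosen with earlier results of these data known. *H2-DMa* was tested only where neither DMSO nor EpA libraries were compared. Named by rule were the 10 genes, the class II chains and H2-DM and H2-DO partners, the immunoproteasome, RFX and *Irf1*, and in each comparison the 3 called list genes that moved most up and down, averaged 1 FPKM or more and had groups that did not overlap. Markers and *Brd2* were named besides, and *Brd2* and the markers with printed tests were named after their values were seen. *H2-K2* and *Trac*, which the lists hold, were not analysed here, and 2 other genes of the lists are not reported here and were left out of the list counts. Motifs were searched in RefSeq promoter windows of 6 of the 10 genes. In 22 alternatives the pseudocount, minimum, scaling, groups in the fit, trend, replicate block, test and each library in turn were changed.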

Additional observations from a re-analysis of the deposited data

How the results depend on the processing

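Over all 22 alternatives the number of genes called stayed between 6 and 8 for EpA against DMSO, 4 and 6 for DMSO+fato against DMSO, 4 and 5 for EpA+fato against EpA, and 6 and 7 for EpA+fato against DMSO+fato, and it was 0 for the difference in the 21 alternatives that could be fitted. The fit of only the groups compared gives no value for the difference. Rescaling moved the median of all tested genes by under 0.1 on the log2 scale. Of 3240 values of named genes and counts recomputed, 3074 kept their direction and their side of the threshold, 139 lost a call, 14 gained one and 13 changed sign.

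The values that changed sign were all close to 0, and the cause was not tested. With rescaling to equal sums (TPM), *H2-K1* in EpA+fato against EpA was 0.0027648 and the difference for *H2-DMa* was 0.0021723, and with voom the latter was 0.000975. Without 1 library, *H2-K1* in EpA+fato against EpA ranged from -0.014708 to 0.011636, *Cd74* in EpA+fato against DMSO+fato from -0.085201 to 0.010458, the difference for *H2-DMa* from -0.019149 to 0.035688 and that for *B2m* from -0.000151 to 0.053254.

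Replicate numbers did not pair the libraries. Over 18 pairs of libraries with the same number in different groups, the correlation of their deviations from the group means was -0.0472 to 0.0744. For 7 of 12 libraries the mean correlation with libraries of their own number was higher than that with libraries of other numbers. With the replicate block, 7 genes were called for EpA against DMSO (*Cd74* lost its call, adjusted p = 0.0622 from limma) and 5 for EpA+fato against EpA (*B2m* gained one, adjusted p = 0.0146). The counts for the other comparisons were the same.

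Among the 10 genes depth limits *Ciita* most, with 10 to 38 reads per library. Of the other genes it leaves the markers *Cd22* on 1 to 10, *Ms4a1* on 4 to 18 and *Pax5* on 4 to 22, *H2-Ob* on 17 to 43, *H2-Aa* on 40 to 98, *H2-Eb1* on 47 to 164 and *Cd1d1* on 58 to 185.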
